A study of Mus musculus with 8 samples.

Results

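Interferon response genes were examined in germline stem (GS) cells, mouse spermatogonia that keep dividing as stem cells in culture with GDNF and FGF2. The set comprised 36 genes, namely the receptor of type I interferons, the factors that signal from it and genes that interferon induces. It was a list of names, and Phf11d was included because it had leaned higher in lines from mice born after intracytoplasmic sperm injection (ICSI). Of the 36 genes, 34 had a row among the 31010 genes of the expression table, and Mx1 and Mx2 were not analysed here. A total of 27 had a mean of at least 1 FPKM (fragments per kilobase of gene, scaled to the library) over all lines and were tested.

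The lines were derived from CD9+ spermatogonia, collected magnetically from mature testes of first-generation (F1) mice labelled B6 and WT, and were grown on embryonic fibroblasts. According to the study's methods, fibroblasts were removed from such cultures on gelatin before collection. Control-F1 mice came from natural mating and ICSI-F1 mice from injection of a sperm into the oocyte. The study took the injected sperm from testes of untreated green mice, which carry an Egfp transgene, and elsewhere calls this sperm wild-type. RNA-seq was performed on 4 control lines (29, 37, 44 and 45) and 4 ICSI lines (11, 17, 20 and 21). The labels name no mouse or litter, although the study lists F1 mice of both groups under the same numbers as the lines, so p-values measure the spread between these lines only. No line was treated with interferon according to the labels.

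Sample titles had 2 forms, and each held 2 lines per group. Titles of label form 1 were joined by hyphens (control 29 and 37, ICSI 11 and 17), and those of label form 2 by the low line (_; control 44 and 45, ICSI 20 and 21). The submitters' processing notes also differed, naming STAR 2.7.9a, HTSeq 0.13.5 and cutadapt 3.4 for form 1 and STAR 2.6.0c, HTSeq 0.11.2 and cutadapt 1.16 for form 2, whereas the study's methods name only the former. Which versions made each column is not given in the sources used here, so any difference between forms in culture, library or processing cannot be told apart. Reads recovered from the FPKM steps numbered 24218938 to 26108270 in form 1 and 31786326 to 43413306 in form 2. At these depths, 3 reads in a gene of 1 kb amounted to 0.068 to 0.12 FPKM, which covers counting error only. Germ cell identity was checked with Ddx4, a germ cell RNA helicase, which was at 173 to 274 FPKM in the 8 lines.

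Type I interferons bind the receptor IFNAR1-IFNAR2, and the kinases on its tails phosphorylate STAT2. Together with IRF9, STAT2 takes part in a complex that binds the interferon-stimulated response element (ISRE) of antiviral genes, whereas interferon gamma signalling acts through the gamma-activated site (GAS). Pluripotent stem cells are known to respond weakly to interferon, and they express part of the antiviral set without it.

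Sequences upstream of some members are shown because the ISRE and the GAS are the elements through which interferon acts on its target genes. A RefSeq promoter on GRCm38.p6 was found for 29 of the 36 members, each running from 250 bases before the start to 50 bases from it on. An ISRE-type match, spelled GAAANNGAAA and searched on both strands, occurred in the promoters of 12 of the 29 members (41.4%), against 3.99% of 27025 genes. A GAS-type match, spelled TTCNNNGAA, occurred in 13 (44.8%), against 9.55% of genes. The windows below are written 5′ to 3′ on the strand of the gene, and capitals mark the matches. An ISRE-type match on the opposite strand appears as its complement and begins with TTTC.
Isg15 (chr4:156200856-156200915, minus strand): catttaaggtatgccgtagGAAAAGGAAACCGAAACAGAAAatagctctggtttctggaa
Ifit1 (chr19:34640769-34640828, plus strand): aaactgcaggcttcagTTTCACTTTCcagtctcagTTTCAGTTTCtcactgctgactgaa
Ifit3 (chr19:34583365-34583424, plus strand): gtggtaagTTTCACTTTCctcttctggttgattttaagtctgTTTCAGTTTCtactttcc
Rsad2 (chr12:26456538-26456597, minus strand): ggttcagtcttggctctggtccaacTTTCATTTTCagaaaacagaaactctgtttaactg
Bst2 (chr8:71537565-71537624, minus strand): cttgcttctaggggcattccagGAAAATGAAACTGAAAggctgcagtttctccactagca
Stat2 (chr10:128270251-128270310, plus strand): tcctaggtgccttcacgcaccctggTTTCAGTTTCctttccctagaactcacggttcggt
Irf1 (chr11:53769898-53769957, plus strand): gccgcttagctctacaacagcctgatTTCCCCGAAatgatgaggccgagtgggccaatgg

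The first 6 windows were chosen for an ISRE-type match upstream of the start and the window of Irf1 for its GAS-type match. In Isg15, 3 overlapping ISRE-type matches lay from 78 to 57 bases before the start, and in Bst2 a pair of overlapping matches lay from 130 to 115 bases before it. A GAS-type match of Bst2, from 136 to 128 bases before the start, overlapped the first of these and is not capitalised. Ifit1 and Ifit3 had 2 separate matches each. These matches are descriptions of letters and not of binding. The 12 members with an ISRE-type match had mean levels from 0.215 FPKM (Ifit3) to 33.0 FPKM (Bst2).

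Most members were detected in the bulk RNA of the GS cell lines, but at very unequal levels. The summed level of 20 fibroblast markers was 310 to 1222 FPKM in these lines. The part of embryonic fibroblasts in the levels of the members was not tested. The mean over the 8 lines was at least 10 FPKM for 10 of the 34 members (29.4%, against 22.7% of the 23964 genes above 0), from 1 to 10 FPKM for 17 (50%, against 27.3%) and under 1 FPKM for 7 (20.6%, against 49.9%). Since FPKM is per length, these levels can be set side by side. The plot of levels by role shows that each role except the receptors held members from under 1 to over 10 FPKM.

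**Figure D1:**
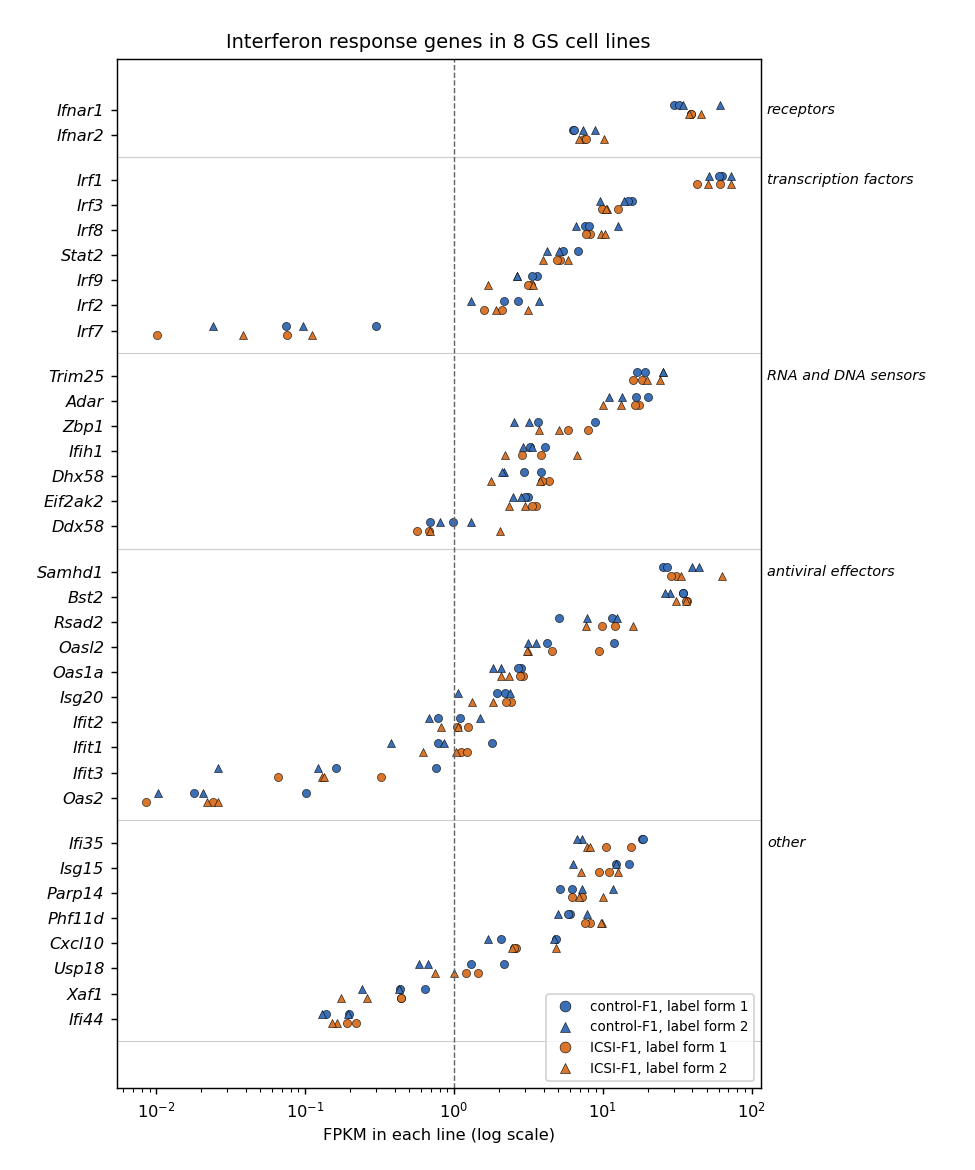
FPKM (log scale) of the 34 members in each of the 8 lines, grouped by role, with control-F1 lines in blue, ICSI-F1 lines in orange, label form 1 as circles and label form 2 as triangles. The dashed line marks 1 FPKM. Irf1 is the highest member at 43.0 to 73.1 FPKM, and Oas2 the lowest at 0.0085 to 0.102 FPKM.

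Both receptor chains were expressed. Ifnar1 (ENSMUSG00000022967, mm10 chromosome 16, 91485238 to 91507441) encodes one chain of the type I interferon receptor. It was at 30.2, 32.6, 61.1 and 34.8 FPKM in control lines 29, 37, 44 and 45, and at 39.4, 39.3, 38.3 and 46.0 FPKM in ICSI lines 11, 17, 20 and 21. Control line 44 was the highest of all lines, and the remaining control lines were below every ICSI line. Ifnar2, the other chain, was lower, at 6.30 to 10.2 FPKM.

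Among the transcription factors, Irf1 was the most abundant and Irf7 the least. Irf1 (ENSMUSG00000018899, chromosome 11, 53770014 to 53778374) encodes an activator of interferon genes and is itself induced by interferon. It was at 63.3, 60.4, 73.1 and 52.0 FPKM in the control lines and at 61.6, 43.0, 72.5 and 50.9 FPKM in the ICSI lines, in the order above. ICSI lines 17 and 21 were below every control line, and the other ICSI lines were within the control range. Irf3, the factor that is activated by phosphorylation when viral nucleic acid is sensed, was at 9.59 to 15.8 FPKM, and Irf8, known from myeloid cells, was at 6.65 to 12.6 FPKM. The members of the ISRE-binding complex were lower, with Stat2 at 3.97 to 6.77 FPKM and Irf9 at 1.69 to 3.63 FPKM, and Irf2, which competes with IRF1, was at 1.30 to 3.72 FPKM. Irf7, the interferon-induced factor that amplifies interferon production, was at 0.010 to 0.30 FPKM, with 1 to 30 reads per line. Thus Irf3 was present in these lines at a mean of 12.2 FPKM, whereas the inducible Irf7 had a mean of 0.091 FPKM.

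The genes grouped here with the sensors of foreign nucleic acid ranged from Trim25 to Ddx58. Trim25 (ENSMUSG00000000275, chromosome 11, 88999376 to 89020293) encodes a ubiquitin ligase that activates the RNA sensor RIG-I. It was at 17.1, 19.3, 25.4 and 25.3 FPKM in the control lines and at 18.3, 15.9, 24.2 and 19.8 FPKM in the ICSI lines. In both groups the lines of label form 2 were higher than those of form 1. Adar (ENSMUSG00000027951, chromosome 3, 89715022 to 89753446) encodes the enzyme that edits adenosine to inosine in double-stranded RNA and keeps self RNA from being sensed. It was at 16.8, 20.2, 10.9 and 13.5 FPKM in the control lines and at 17.5, 16.4, 10.0 and 13.3 FPKM in the ICSI lines, so that the lines of form 2 were the lower ones in both groups. The sensors themselves were less abundant. Zbp1, a sensor of Z-form nucleic acid, was at 2.53 to 8.83 FPKM, Ifih1 (MDA5) at 2.22 to 6.66 FPKM, Dhx58 (LGP2) at 1.77 to 4.36 FPKM and Eif2ak2 (PKR) at 2.36 to 3.55 FPKM. Ddx58, which encodes RIG-I, was at 0.566 to 2.03 FPKM with a mean of 0.969 FPKM.

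The antiviral effectors included abundant and barely expressed genes. Samhd1 (ENSMUSG00000027639, chromosome 2, 157097533 to 157135265) encodes a hydrolase that depletes the deoxynucleotides used by viral reverse transcriptases. It was at 25.5, 26.9, 40.1 and 44.2 FPKM in the control lines and at 31.0, 28.7, 63.1 and 33.4 FPKM in the ICSI lines. All lines of form 2 were above all lines of form 1, and ICSI line 20 was far above the others. Bst2 (ENSMUSG00000046718, chromosome 8, 71534255 to 71537456) encodes tetherin, a membrane protein that holds budding viruses on the cell. It was at 34.9, 34.5, 28.3 and 26.1 FPKM in the control lines and at 36.8, 36.1, 31.0 and 36.3 FPKM in the ICSI lines. Its ICSI lines lay close together except for line 20, and it had the smallest range of the 34 members, with the highest line at 1.41 times the lowest. Rsad2 (viperin), which makes a chain-terminating nucleotide, was at 5.04 to 16.0 FPKM, and the exonuclease gene Isg20 was at 1.06 to 2.43 FPKM.

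The genes of 2 effector families were unequal among themselves. Of the 2′-5′ oligoadenylate synthetase family, which activates RNase L or resembles the enzymes that do, Oasl2 was at 3.12 to 12 FPKM and Oas1a at 1.83 to 2.93 FPKM, whereas Oas2 was at 0.0085 to 0.102 FPKM with 1 to 12 reads per line. Of the Ifit family, which binds viral RNA, Ifit2 had a mean of 1.03 FPKM and Ifit1 of 0.977 FPKM, but Ifit3 had a mean of 0.215 FPKM with 2 to 35 reads per line. The reads of Ifit3 are uncertain, since Ifit3b is a near-identical neighbour, and so are those of Oas1a among its close copies.

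Among the remaining members, Isg15, a ubiquitin-like protein attached to others during the response, was at 6.28 to 15.0 FPKM, and Usp18, the protease that removes it, was at 0.585 to 2.15 FPKM. Ifi35 (ENSMUSG00000010358, chromosome 11, 101448407 to 101458698), an interferon-induced protein with a leucine zipper, was at 18.3, 18.6, 7.25 and 6.69 FPKM in the control lines and at 15.6, 10.5, 7.85 and 8.26 FPKM in the ICSI lines. The lines of form 1 were all above those of form 2, and within form 1 both control lines were above both ICSI lines. Parp14, an ADP-ribosyltransferase, was at 5.20 to 11.8 FPKM and the chemokine gene Cxcl10 at 1.69 to 4.88 FPKM. The apoptosis-linked Xaf1 was at 0.173 to 0.636 FPKM and Ifi44 at 0.129 to 0.220 FPKM.

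Phf11d (ENSMUSG00000068245, chromosome 14, 59347407 to 59365470) encodes a PHD finger protein. It was at 5.98, 5.83, 5.02 and 7.87 FPKM in the control lines and at 8.21, 7.64, 9.86 and 9.69 FPKM in the ICSI lines, on 654 to 1563 reads per line. Control line 45 was above ICSI line 17, so the groups overlapped, but within each label form both ICSI lines were above both control lines. The difference was 0.47 on the log2(FPKM + 1) scale, 0.37 within form 1 and 0.56 within form 2, and it ranged from 0.39 to 0.57 when single lines were left out. No test is given, since the gene was chosen for this difference. The values within forms and without single lines come from the same lines, so they are not separate evidence for it. Its relatives Phf11a, Phf11b and Phf11c, members of the same family, were at 0.072 to 0.335, 0.749 to 1.61 and 0.103 to 1.30 FPKM, respectively. Phf11b, like Phf11d, was highest in ICSI line 20, whereas Phf11c was highest in ICSI line 21 and Phf11a in control line 45. Values of the family are uncertain wherever its copies share reads.

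The next question was whether the interferon response differed in ICSI-F1 lines. The 26 tested members other than Phf11d were read from a fit of the group alone over all 12000 genes. This fit left out label form, so differences between the forms counted in its spread. None (0 of 26) had an adjusted p under 0.05 in limma, as for all genes (0%), and 0 of 26 had an unadjusted p under 0.05, against 0.458% of all genes. The differences in mean log2(FPKM + 1) ranged from -0.27 for Irf3 to 0.34 for Zbp1, with 14 members higher and 12 lower, a median of 0.034 and a median of -0.013 over all genes. Irf3 had the smallest unadjusted p (0.116 in limma), with 13.5 ± 2.75 FPKM (SD, n = 4) among control lines against 10.9 ± 1.21 FPKM (SD, n = 4) among ICSI lines. The intervals allow for changes of some size. The 95% interval of the log2 difference was -0.09 to 0.45 for Bst2, -0.52 to 0.24 for Irf1, -0.36 to 0.55 for Ifnar1, -0.45 to 0.75 for Samhd1 and -1.0 to 0.82 for Oasl2, the widest. With label form as covariate, 0 genes were called. An unadjusted p under 0.05 in limma was reached by 140 of 12000 genes, against 55 without the covariate. The SE of the log2 difference was 0.0876 with the covariate and 0.122 without it for Bst2. It was 0.0957 and 0.166 for Trim25, 0.17 and 0.267 for Samhd1, 0.176 and 0.203 for Ifnar1 and 0.167 and 0.171 for Irf1. The members' p-values from that fit are not given. The sign was not stable for Ifnar1, which moved to -0.017 without control line 29, or for Samhd1, which moved to -0.098 without ICSI line 20. Of the 27 tested members, Phf11d included, 0 had all ICSI lines above (0.208% of all genes) or below (0.233%) all control lines.

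**Figure D2:**
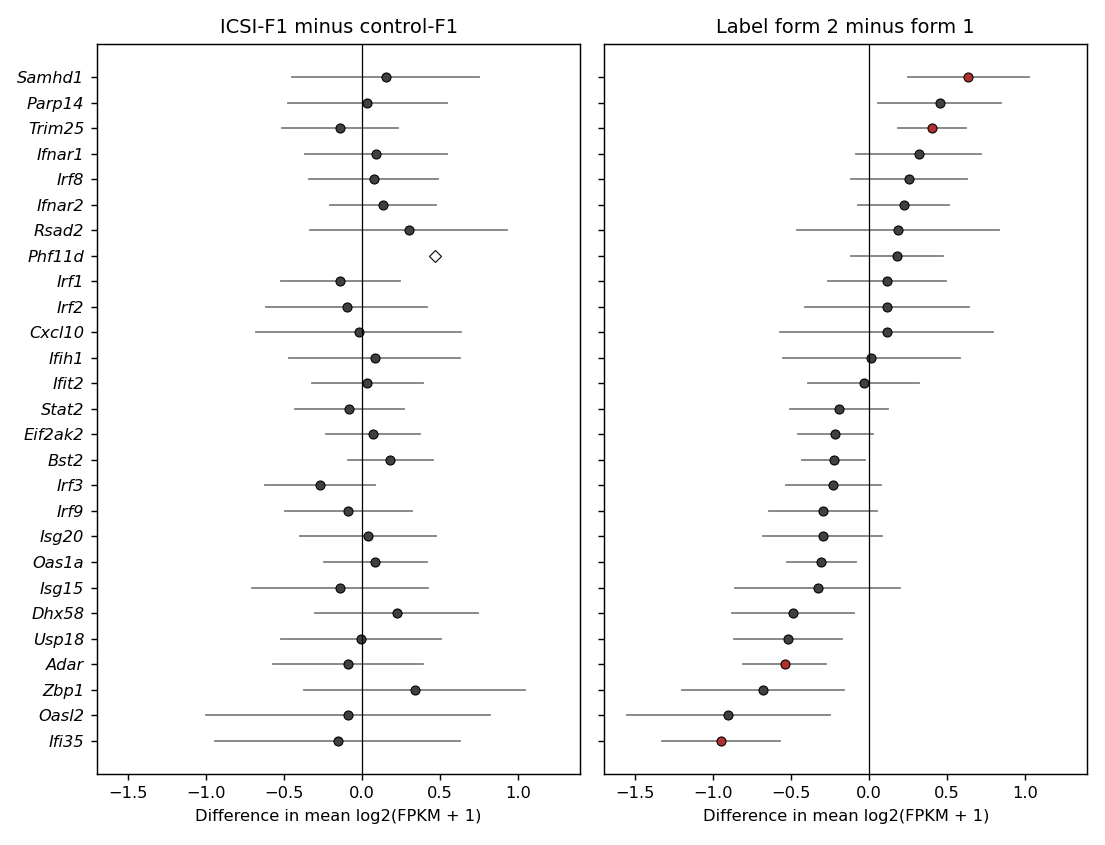
Difference in mean log2(FPKM + 1) with its 95% interval from limma for the 27 tested members, between ICSI-F1 and control-F1 lines (left) and between label forms (right). The fit on the left did not include label form. Members with an adjusted p under 0.05 are in red, and the open diamond is Phf11d, which was not tested on the left. All 26 intervals on the left include 0, whereas on the right 3 lie above 0 and 8 below, of which Samhd1 and Trim25 above and Adar and Ifi35 below are red.

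The label forms were compared next, with the group as covariate, because the rule for the members did not use this contrast. In this fit 4 of 27 members (14.8%) had an adjusted p under 0.05 in limma, against 16.0% of all genes tested, so the share was near the background. Samhd1 and Trim25 were higher in form 2 (2 of 27 members, against 10.2% of all genes), and Ifi35 and Adar were lower (2 of 27, against 5.76%). Ifi35 fell by 0.95 ± 0.17 on the log2 scale (SE; limma adjusted p = 0.0142), from 15.8 ± 3.77 FPKM in form 1 to 7.51 ± 0.688 FPKM in form 2 (SD, n = 4 each). The Adar difference was -0.54 ± 0.12 (SE; limma adjusted p = 0.0225). For Trim25 it was 0.40 ± 0.096 (SE; limma adjusted p = 0.0299), and for Samhd1 0.64 ± 0.17 (SE; limma adjusted p = 0.0390).

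The direction of these 4 differences was kept when single lines were left out, but the calls were not. The log2 difference ranged from -1.12 to -0.86 for Ifi35, from -0.62 to -0.47 for Adar, from 0.36 to 0.47 for Trim25 and from 0.46 to 0.82 for Samhd1. Ifi35 was no longer past the threshold without control 37 (adjusted p = 0.0539 in limma) or without ICSI 11 (0.0565). Adar was lost without control 37, control 44, ICSI 11 or ICSI 17 (0.0605 to 0.0772). Trim25 (0.0587 to 0.0903) and Samhd1 (0.0512 to 0.100) were lost without any single line except ICSI 21. The number of members called ranged from 0, without control 37 or ICSI 11 (2.39% and 1.75% of all genes), to 10 (37% of 27), without ICSI 21 (22.4% of all genes), so that the calls over all genes moved with them.

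**Figure D3:**
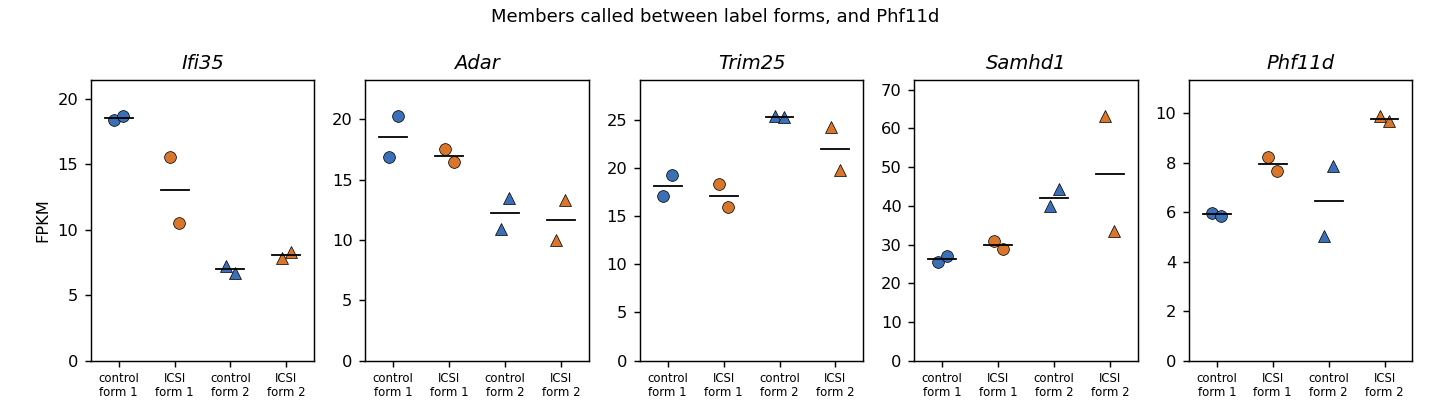
FPKM in each line of the 4 members called between label forms and of Phf11d, by group and label form. Points are lines and bars are the means of 2 lines. Ifi35 and Adar are lower in form 2, and Trim25 and Samhd1 are higher. In Phf11d, which was chosen because it leaned higher in ICSI lines, both ICSI lines are above both control lines within each form.

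Of all 27 tested members, 15 had a lower and 12 a higher mean log2(FPKM + 1) in form 2. At an unadjusted p under 0.05 there were 3 members higher and 8 lower in form 2 (11.1% and 29.6% of 27), against 20.4% and 15.0% of all genes. The 7 of these 11 that did not pass the adjustment were Usp18 (log2 difference -0.52, limma adjusted p = 0.0505), Oasl2 (-0.90), Oas1a (-0.31), Zbp1 (-0.68), Dhx58 (-0.49), Bst2 (-0.23) and Parp14 (0.45), with their log2 differences in brackets and adjusted p-values in limma up to 0.103. The median over the 27 members was -0.19, against 0.028 over all genes. All lines of form 2 were above all lines of form 1 in 2 members, Samhd1 and Trim25 (7.41% of 27, against 16.0% of all genes), and below them in 5, Adar, Ifi35, Oasl2, Oas1a and Usp18 (18.5%, against 10.8%). Irf1, Ifnar1 and Phf11d had log2 differences of 0.12, 0.32 and 0.18 (limma adjusted p = 0.650, 0.229 and 0.355). The sign of the Irf1 value was not stable, and it was -0.02 under quantile normalization.

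Cell type markers were compared between the label forms as well. Over all genes tested, 10.2% were called higher and 5.76% lower in form 2. The summed level of 14 spermatogonial markers was 796 to 911 FPKM in form 1 and 1085 to 1300 FPKM in form 2, with 9 markers called higher and 1 lower. The largest parts of this sum were Dazl, at 257 to 420 FPKM in the 8 lines, and Ddx4, at 173 to 274 FPKM. The sum of 12 leukocyte markers was 31.6 to 56.2 FPKM in form 1 and 14.7 to 23.5 FPKM in form 2, with 0 of the 3 tested markers called higher and 1, Lyz2, lower. This separation came from Lyz2, which was at 19.2 to 44.1 FPKM in form 1 and 3.36 to 13.2 FPKM in form 2. The other 11 leukocyte markers summed to 9.22 to 14.5 FPKM in form 1 and 8.66 to 20.1 FPKM in form 2, which overlapped, while the pan-leukocyte marker Ptprc (CD45) was at 0.041 to 0.227 FPKM in the 8 lines. The sum of 20 fibroblast markers overlapped between the forms (375 to 1222 and 310 to 1067 FPKM), with 0 of 19 tested markers called, and so did that of 8 markers of testis somatic cells (5.21 to 6.86 and 4.85 to 7.80 FPKM), of which Sox9 was called higher and Wt1 lower among 3 tested. The part of these cells in the members' differences was not tested. In bulk RNA, fewer cells of a type cannot be told apart from less RNA per cell.

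The difference between ICSI and control lines was compared between the label forms by an interaction term. It was past an adjusted p of 0.05 in limma for 0 of 26 members, as for 0% of all genes, and 1 of 26 had an unadjusted p under 0.05, against 1.23% of all genes. This was Ifi35, where ICSI lines were lower in form 1 (-0.50) and higher in form 2 (0.18), a difference of 0.68 ± 0.26 (SE; limma unadjusted p = 0.0300, adjusted p = 1.0).

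Control line 29 was often the highest line among the members that were barely expressed. The 7 members with a mean under 1 FPKM were Ifit1, Ddx58, Xaf1, Ifit3, Ifi44, Irf7 and Oas2. Of these, control line 29 was the highest line for 5, all but Ddx58 and Ifi44, and it was the highest for 16.2% of the 11964 genes above 0 with a mean under 1 FPKM. These members were described after their values were seen, and no test of the order was made. In that line Irf7 was at 0.30 FPKM on 30 reads, against at most 0.111 FPKM in the other lines, Ifit3 at 0.758 FPKM on 35 reads, against at most 0.325 FPKM, and Oas2 at 0.102 FPKM on 12 reads, against at most 0.026 FPKM. Ifit1 was at 1.81 FPKM in it, against 0.375 to 1.23 FPKM. The other control lines were not raised with it, and control line 45 was the lowest of the 8 lines for Ifit1 and Ifit3.

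Control line 29 was also the highest for 6 of the 27 tested members (22.2%, against 13.1% of all genes tested). Control line 44 was the highest for 7 of them (25.9%, against 16.3%) and ICSI line 20 for 6 (22.2%, against 20.6%), whereas control line 45 and ICSI line 21 were the highest for 0 (against 9.63% and 9.32%). Of the remaining lines, ICSI 11 was the highest for 5 (18.5%, against 5.91%), control 37 for 3 (11.1%, against 18.7%) and ICSI 17 for 0 (against 6.37%). The summed fibroblast markers were highest in control line 29 (1222 FPKM), followed by control line 44 (1067 FPKM) and ICSI line 20 (749 FPKM), against 310 to 541 FPKM in the other lines. The summed leukocyte markers were also highest in control line 29 (56.2 FPKM, of which Lyz2 made up 44.1 FPKM), against 14.7 to 49.3 FPKM in the others. Without Lyz2 the leukocyte sum was 12.1 FPKM in control line 29 and highest in control line 44 (20.1 FPKM). The part of feeder cells or leukocytes in the levels of these members was not tested.

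**Figure D4:**
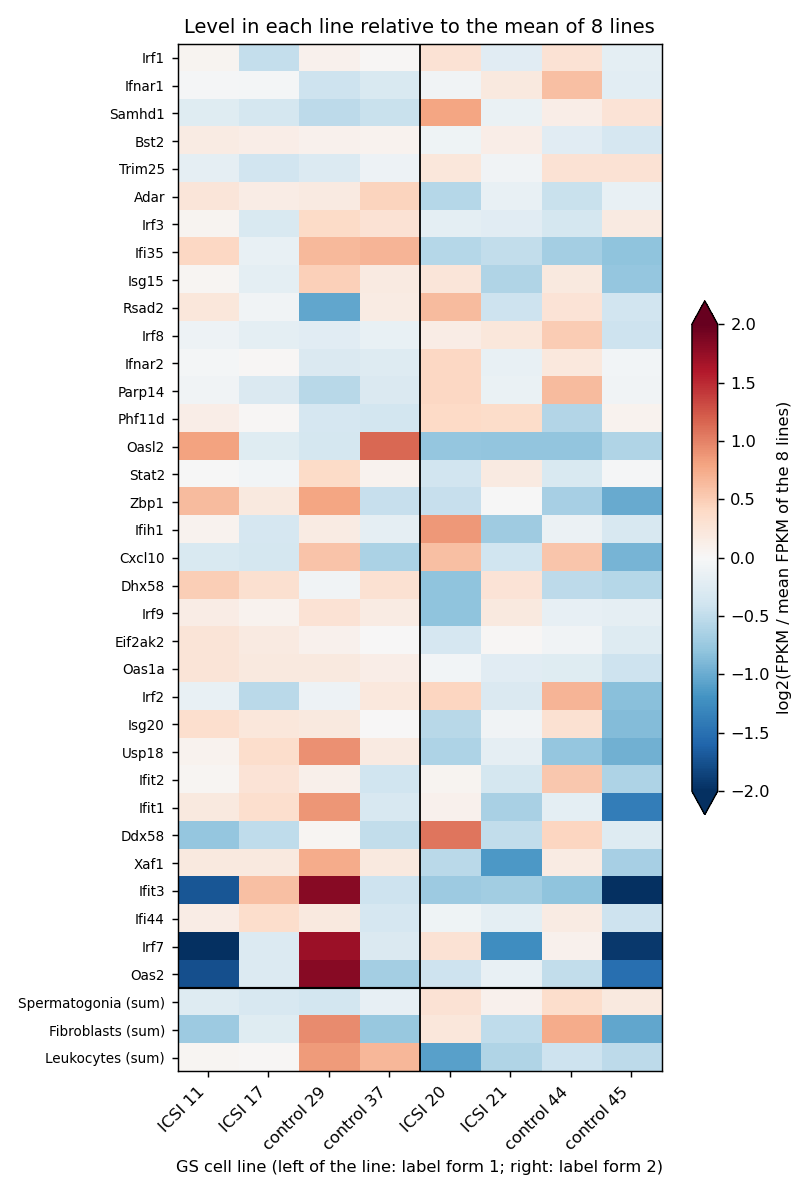
Level of each of the 34 members in each line relative to its mean over the 8 lines, on a log2 scale, ordered by mean FPKM from Irf1 to Oas2, with the summed markers of spermatogonia, fibroblasts and leukocytes below. Red is above the mean and blue below, values beyond 2 are drawn in the end colours, and the vertical line separates the label forms. Control line 29 is red for Ifit1, Xaf1, Ifit3, Irf7 and Oas2 and for the sums of fibroblasts and leukocytes.

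For the barely expressed members, the label forms were compared by an exact two-sided permutation test over 70 assignments of the lines, whose smallest p is 0.0286. For Xaf1 all lines of form 2 were below all lines of form 1, with a mean difference of -0.22 on the log2(FPKM + 1) scale. The exact permutation p was 0.0286 before any adjustment for the 7 members. The separation was narrow, with control 37 of form 1 at 0.436 FPKM on 51 reads and control 44 of form 2 at 0.430 FPKM on 66 reads. The smallest p depends on this order, which is within counting error. The share of all genes under 1 FPKM that separated by form was not counted. The other 6 gave exact permutation p-values from 0.0857 for Ifit1 to 0.743 for Oas2.

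The rest of the pathway was read from a list of 93 symbols, of which 90 had a row and 59 were tested. The ligands on this list, which holds only Ifna1, Ifna2 and Ifna4 of the Ifna genes, were close to absent. Other interferon genes were not examined. Over 9 interferon genes and 8 lines there were 10 reads in all, at most 2 in a line for 1 gene, and Ifnb1, Ifna1, Ifna4, Ifnl2 and Ifnl3 had 0 reads in every line. Jak1, a kinase of the receptor, was at 73.7 to 170 FPKM. Transcripts of the receptor, Jak1 and Stat2 were measured in all lines, while those of the listed ligands were at or near 0 reads.

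In the fit of the group alone, no gene of this list (0 of 59) had an adjusted or an unadjusted p under 0.05 in limma between ICSI and control lines. Between label forms, 3 were higher and 4 lower in form 2 (11.9% of 59, against 16.0% of all genes). Those higher were Tlr3, a receptor of double-stranded RNA in endosomes (log2 difference 1.06, limma adjusted p = 0.0107), Jak1 (log2 difference 0.78, adjusted p = 0.0173) and the phosphatase gene Ptpn2, which restrains JAK-STAT signalling (log2 difference 0.30, adjusted p = 0.0394). Tlr3 was at 1.65 to 2.50 FPKM in form 1 and at 3.67 to 6.06 FPKM in form 2, with no overlap. The 3 lower genes with the smallest p were Igtp, a GTPase induced by interferon gamma (log2 difference -0.65, limma adjusted p = 0.0099), Parp10, a mono-ADP-ribosyltransferase (log2 difference -0.52, adjusted p = 0.0239), and Oasl1 (log2 difference -0.53, adjusted p = 0.0372). The reads of Igtp are uncertain, since it overlaps Irgm2 on the same strand of chromosome 11. Tlr3 and Igtp were called under all 15 alternatives run, whereas the call was lost under 3 of them for Jak1, 4 for Parp10, 8 for Oasl1 and 11 for Ptpn2. Without single lines the log2 difference was 0.67 to 0.91 for Jak1, -0.59 to -0.45 for Parp10, -0.63 to -0.43 for Oasl1 and 0.26 to 0.34 for Ptpn2. The Ifitm genes, which encode membrane proteins that block viral fusion and also mark germ cells, ranged widely between lines, with Ifitm1 at 3.34 to 6.53, Ifitm2 at 12.5 to 70.3 and Ifitm3 at 9.81 to 47.5 FPKM. Ifitm3 was highest in control line 29 and Ifitm2 in control line 44, which were the lines with the highest fibroblast sums, and the part of these cells was not tested.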

How the data were processed

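RNA-seq of 8 GS cell lines was analysed. The authors trimmed single reads with cutadapt, mapped them to mm10 with STAR on GENCODE annotation, counted them with htseq-count and deposited FPKM values. The methods speak of TPM, but the deposited columns have unequal sums, unlike TPM. The labels name a SMARTER kit and the methods a stranded TruSeq kit, so strandedness is uncertain. The authors' log2 fold changes and adjusted p-values (DESeq2) in the table were not used.

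Whole reads were recovered from FPKM and exon lengths for 98.2% of genes above 0 (tolerance 0.02 reads), but not for Isg15. Genes averaging 1 FPKM or more (12000) were compared on log2(FPKM + 1) by two-sided tests in limma 3.58.1 (R 4.3.3; lmFit, eBayes with trend), and p-values were adjusted over all of them by Benjamini-Hochberg (threshold 0.05). The pseudocount understates changes of low genes. The fit was also run on simulated data, in which label form made no difference when the group was changed. That run cannot show how the fit between groups performs with the label form differences found here. Members under the minimum were compared by exact permutation (scipy 1.17.1). Positions came from an earlier GENCODE release of the same assembly and promoters from RefSeq. The members and lists were chosen with earlier results of these data known.

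Values in every line were given for Phf11d, members called between label forms, the 5 with the highest mean and any other member with an unadjusted p under 0.05 between groups. The rest were given as ranges. Of the pathway list, which holds Tmem173 and Mb21d1 under second names as well, the 3 genes in each direction with the smallest p past the threshold were named, besides the Phf11 paralogs and the Ifitm family. Members described in the pattern of control line 29 were chosen after their values were seen. Alternatives changed the pseudocount, filter, scaling, covariate, test or lines used.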

Additional observations from a re-analysis of the deposited data

Results flagged for a closer look

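Of 68 groups of 4 lines, one for each of the 34 members in control and in ICSI lines, 9 held a line far from the other 3 by Dixon's test, where chance gives about 1 in 20. This was 13.2% of the members' groups, against 6.3% of 24000 groups of all genes tested and 13.5% of 47928 groups of all genes above 0. In control lines, Ifnar1 was at 61.1 FPKM in line 44 (30.2 to 34.8 in the others), Oasl2 at 12 FPKM in line 37 (3.13 to 4.22) and Oas2 at 0.102 FPKM in line 29 (0.010 to 0.021). In ICSI line 21, Ifnar1 was at 46.0 FPKM (38.3 to 39.4 in the others). The other 5 were in ICSI line 20, which was also the line apart in 744 of the 1513 such groups of all genes tested (49.2%). There, Samhd1 was at 63.1 FPKM (28.7 to 33.4), Cxcl10 at 4.88 FPKM (2.46 to 2.62) and Ddx58 at 2.03 FPKM (0.566 to 0.687), each the highest, whereas Bst2 was at 31.0 FPKM (36.1 to 36.8) and Irf9 at 1.69 FPKM (3.12 to 3.38), each the lowest. ICSI line 20 had the highest fibroblast marker sum of the ICSI lines (749 FPKM) and the lowest leukocyte sum of the 8 lines (14.7 FPKM), but without Lyz2 that sum was 9.94 FPKM and not the lowest. The part of these cells was not tested.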

How the results depend on the processing

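Single lines could not be paired because the control and ICSI lines share no replicate number. Label form was added as a covariate to the fit between groups in an alternative. The count of genes called between ICSI and control lines was 0 under the alternatives run, without single lines included (0 to 0), except with no filter, where it was 1 of 23964 genes. The interaction count was 0 under each alternative run, including without single lines (0 to 0). Leaving out single lines was added there after seeing the data. Between label forms, 1917 genes were called, against 1255 with no filter and 210 to 2691 without single lines, with the fewest without ICSI line 11. Of these calls 64.0% were higher in form 2, against 51.2% of 1991 under quantile normalization and 53.9% of 1817 in limma-voom on recovered reads. The members called numbered 4, against 7 with label form as the only term, 3 to 5 under the other settings and 0 to 10 without single lines. The log2 difference of Irf1 between forms (0.12) was -0.022 under quantile normalization and -0.010 to 0.24 without single lines (-0.0089 without ICSI line 20). Between groups, Ifnar1 ranged from -0.017 to 0.32 and Samhd1 from -0.098 to 0.29 without single lines. The cause of these changes was not tested. Values of Irf7, Oas2 and Ifit3 rest on few reads and are limited by depth.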
